A study of Mus musculus with 3 samples.

Results

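The genes described here are 9 that build the hemidesmosome and the other adhesions of basal keratinocytes to the basement membrane: *Dst*, *Plec*, *Col17a1*, *Itga6*, *Itgb4*, *Itgb1*, *Itga3*, *Lama3* and *Lamb3*. They were chosen by name, from a total of 19927 gene symbols in the deposited count matrices, and all 9 were found, although *Itga3* is not listed in control 1, where it was taken as 0. Single-cell RNA sequencing had been performed on cells scraped from trypsin-treated dorsal skin of mice at P18, when the first catagen begins. Both control libraries came from *Vdr* flox/flox mice, and the third library came from *Vdr* flox/flox; Krt14cre mice (*Vdr* cKO), in which a Cre driven by the *Krt14* promoter removes a *Vdr* exon in keratinocytes. Floxed *Vdr* alleles were thus shared by all libraries and only the Cre differed. Each library pooled 3 mice, and there was 1 *Vdr* cKO library, so no p-value could be given for any difference, and a difference between libraries and one between genotypes cannot be told apart.

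Hemidesmosomes are the junctions that fix basal keratinocytes to the basement membrane. Inside the cell, the plakins encoded by *Dst* and *Plec* tie the basal keratin filaments to the integrin pair encoded by *Itga6* and *Itgb4* and to the transmembrane collagen XVII of *Col17a1*, and these bind a laminin with chains encoded by *Lama3* and *Lamb3*. *Itgb1* and *Itga3* encode a second laminin-binding integrin, which sits in focal adhesions and along the basal cell surface. As keratinocytes leave the basal layer they lose these contacts and the keratins *Krt5* and *Krt14*, and later make *Krt10* and loricrin (*Lor*).

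The sequences before the start sites of *Dst*, *Col17a1* and *Lamb3* are printed because these 3 members were the ones over 2-fold above both controls, and because the nuclear receptor deleted in the *Vdr* cKO mice acts at DNA. Promoter windows were read for 5 of the 9 members, in 8 windows from RefSeq on GRCm38.p6. None was given for *Plec*, *Itga6* and *Itgb4*, and *Lama3* was left out of the search. Each stretch runs 5′ to 3′ on the strand of its gene and holds only bases that lie in no exon annotated in GENCODE M21. Those of *Dst* and *Lamb3* lie inside the annotated spans of their genes. Capitals mark the letters TATAAA, and no other searched motif fell in the printed bases.
*Dst*, downstream start, chr1:34160010-34160259, plus strand: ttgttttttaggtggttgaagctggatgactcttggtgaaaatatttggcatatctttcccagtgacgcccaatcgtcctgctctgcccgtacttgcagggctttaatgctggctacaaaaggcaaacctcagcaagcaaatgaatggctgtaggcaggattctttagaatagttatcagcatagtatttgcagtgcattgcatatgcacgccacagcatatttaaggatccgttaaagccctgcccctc
*Col17a1*, chr19:47692095-47692292, minus strand: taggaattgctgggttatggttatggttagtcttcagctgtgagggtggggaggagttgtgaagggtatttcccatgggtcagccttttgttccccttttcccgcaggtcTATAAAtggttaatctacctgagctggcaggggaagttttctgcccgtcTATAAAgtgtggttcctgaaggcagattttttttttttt
*Lamb3*, chr1:193301744-193301992, plus strand: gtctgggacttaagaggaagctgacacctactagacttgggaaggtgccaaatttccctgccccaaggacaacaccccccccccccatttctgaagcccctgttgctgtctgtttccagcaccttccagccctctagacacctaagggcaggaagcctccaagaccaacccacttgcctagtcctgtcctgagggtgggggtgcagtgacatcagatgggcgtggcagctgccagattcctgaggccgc

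Within 250 bases before the 8 starts, the nuclear receptor half-site AGGTCA, the AP-1 motif TGANTCA and the p63 half-site had 0 matches on either strand, whereas 14.02%, 6.75% and 7.13% of all 32851 windows of that length hold one. The GATA motif AGATAA, found in 9.99% of all windows, had 1 match, 31 to 36 bases before the RefSeq start of *Col17a1* and inside the first exon that GENCODE annotates. TATAAA, added to the search after the sequences had been seen and present in 12.4% of all windows, occurred only before *Col17a1*, where its 2 matches lie 34 to 39 and 83 to 88 bases before the GENCODE start. No match says only that these letters are not in these windows. *Dst* has 20 annotated transcripts with 11 protein-coding starts, and the upstream of its 2 RefSeq starts is richer in G and C (68.8%) than the downstream one (45.2%). Counts per gene do not separate these transcripts, so the epithelial and the neural or muscle forms of dystonin are summed in all *Dst* values.

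Barcodes counted as cells from 200 genes upward if mitochondrial counts did not exceed 20%, which left 1480, 1658 and 2622 cells (in the order control 1, control 2, *Vdr* cKO, an order kept throughout), with 18802408, 28690129 and 30954897 counts. *Vdr* was not lower in the library labelled *Vdr* cKO, at 40.7, 35.9 and 80.8 CPM (counts scaled to a library total of 1e+06), and counts per gene cannot show the loss of a single exon. Entries equal to 1 made up 14.5%, 22.2% and 26.9% of entries above 0, so counts can include PCR copies, and the sources used here do not state how molecules were counted. The libraries differed in the keratins that mark layers: *Krt14* was at 857, 611 and 2008 CPM, *Krt5* at 679, 421 and 2268 CPM, and *Krt10* at 35192, 32952 and 24166 CPM. At similar counts, cells of the *Vdr* cKO library showed more genes. Medians were 377, 502 and 688.5 genes at 4190, 4492.5 and 4055 counts per cell. Between 60 and 85 barcodes of a library were shared with another library. Markers of fibroblasts and endothelial cells, which trypsin-scraped epidermis should hardly hold, summed to at most 8.72 and 9.52 CPM in any library.

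Over all cells, every one of the 9 members had a higher CPM in the library labelled *Vdr* cKO than in both controls, an order that *Plec* lost under other scale factors. The share of all genes above both controls at any fold was not computed. With no minimum CPM, 1874 of 19927 genes were over 2-fold above both controls and 218 were over 2-fold below. The summed level of the members was 551 CPM in control 1, 450 in the other control and 1647 for *Vdr* cKO, a log2 difference of 1.72 from the mean of the controls, whose own log2 difference was 0.29. Without *Dst* the sums were 261, 295 and 804 CPM, a log2 difference of 1.53. Of the 6 members at 50 CPM or more in a library, 3 (*Dst*, *Col17a1* and *Lamb3*) were over 2-fold above both controls and 0 were over 2-fold below, where among all 3919 genes at that level 3.88% were over 2-fold above both controls and 1.15% below. The authors had already picked *Dst* from these same data, as a potential marker of a cluster specific to *Vdr* cKO mice. The call of *Dst* is thus not independent of that choice. The median log2 difference was 1.53 over the 6 members and 0.00 over all 3919 genes. Hair follicle markers moved along with the members: those of the inner root sheath summed to 0.585, 2.54 and 235 CPM and those of the companion layer to 687, 813 and 2360 CPM, and 3 of 3 bulge and 4 of 5 upper follicle genes at 50 CPM were over 2-fold above both controls. These lists share genes. *Krt17*, at 627, 764 and 2082 CPM, is in both the companion layer and the upper follicle list, and *Krt15* is in both the bulge and the basal list. Sebaceous markers summed to 7949, 4835 and 3255 CPM, of which *Elovl4* gave 5032, 3273 and 1628 CPM. The part of these cells in the member values was not tested. Scaling by TMM or median-of-ratios factors moved the median over all genes to −0.19 and −0.22 and the calls from 152 above and 45 below to 107 and 86 or to 100 and 96. The same 3 members were called under both, but *Plec* then lay below control 2, at 137 against 147 CPM with TMM factors. With 1 library in the *Vdr* cKO group, only the gap between the controls shows how far libraries vary. More basal cells and more RNA per basal cell cannot be told apart in such sums.

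**Figure D1:**
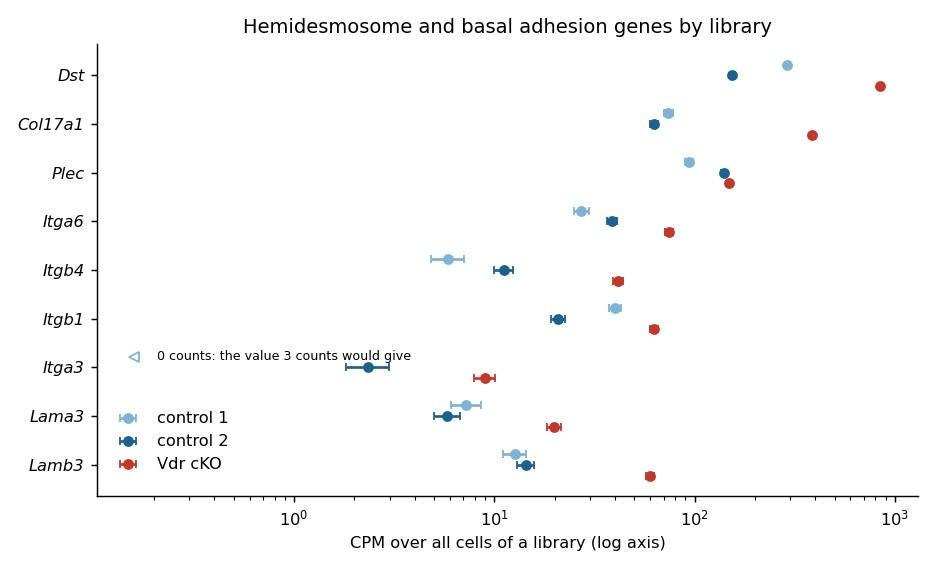
Level of each gene over all cells of a library, in CPM on a log axis, with exact 95% Poisson intervals that cover counting error only. On this scale the *Vdr* cKO points lie to the right of both controls for every gene, by the widest margin for *Col17a1* and the narrowest for *Plec*, where 149 CPM stands beside 140 in control 2.

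Of the plakins, *Dst* (chromosome 1, 33908225 to 34308661), which encodes the plakin that links keratin to the hemidesmosomal plaque, was at 290, 154 and 843 CPM, with a count in 287, 373 and 1535 cells. The *Vdr* cKO level was 2.90-fold that of the higher control (95% Poisson interval 2.82 to 2.99), while control 1 exceeded control 2 by 0.91 on the log2 scale. In cells drawn down to 1000 counts each, *Dst* was detected in 11.7%, 12.1% and 37.9% of cells, so the controls lay together in the share of cells even where their CPM did not. When each gene was counted once per cell, the log2 difference of *Dst* was 0.91 in place of 1.92, and *Dst* no longer passed the 2-fold rule. *Plec* (chromosome 15, 76170974 to 76232574), whose product cross-links keratin to the integrin beta chain, was at 93.5, 140 and 149 CPM, the *Vdr* cKO level being 1.07-fold that of control 2, and was detected in 5.53%, 7.70% and 8.98% of cells at 1000 counts. Its intervals in control 2 (6.44% to 9.12%) and the *Vdr* cKO library (7.90% to 10.2%) overlapped.

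Of the transmembrane members, *Col17a1* (chromosome 19, 47646344 to 47692094) was at 74.0, 62.6 and 388 CPM, which is 5.24-fold over the higher control (4.95 to 5.54), and the controls differed by 0.24 on the log2 scale. It was detected in 5.39%, 4.70% and 21.98% of cells at 1000 counts, from 145, 175 and 1132 cells with a count at full depth. This was the member with the highest log2 difference (2.49) among the 6 at 50 CPM or more, and it passed the 2-fold rule under each of the alternatives tried between libraries. *Itga6* (chromosome 2, 71745616 to 71858416), the integrin alpha chain of the hemidesmosome, was at 27.2, 38.7 and 74.5 CPM, or 1.92-fold the higher control (1.79 to 2.07), just short of 2-fold. Its partner *Itgb4* (chromosome 11, 115974709 to 116008412) was at 5.85, 11.2 and 41.4 CPM, or 3.71-fold (3.28 to 4.204), and stayed out of the count above because no library reached 50 CPM. The number of *Itga6* counts for each *Itgb4* count, a ratio that can be set side by side between libraries but not read as a ratio of transcripts, was 4.65, 3.47 and 1.80. At 1000 counts per cell *Itgb4* was seen in 0.55%, 0.56% and 2.58% of cells and *Itga6* in 1.36%, 1.57% and 4.92%.

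Of the second laminin receptor, *Itgb1* (chromosome 8, 128685654 to 128733200), the beta chain shared by many integrins, was at 40.0, 20.7 and 62.7 CPM, so the *Vdr* cKO level was 1.56-fold that of control 1 and the controls themselves differed by 0.92 on the log2 scale. Without control 1, and thus against control 2 alone, *Itgb1* passed the 2-fold rule, with a log2 difference of 1.55. *Itga3* (chromosome 11, 95044474 to 95076801), its laminin-binding alpha chain, had counts in 0, 6 and 47 cells and levels of 0, 2.34 and 8.98 CPM, or 3.85-fold that of control 2. In control 2 a single cell held 65.7% of the *Itga3* counts, and in control 1 the 0 counts allow a level of up to 0.160 CPM, so its levels rest on few cells.

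The 2 laminin chains were both scarce in the controls. *Lamb3* (chromosome 1, 193207699 to 193343878), the beta chain, was at 12.7, 14.3 and 59.6 CPM, or 4.16-fold the higher control (3.74 to 4.64), and had a count in 17, 36 and 277 cells. The controls differed by 0.17 on the log2 scale, although 1 cell gave 29.8% of the *Lamb3* counts in control 1 and 33.6% in control 2. *Lama3*, the alpha chain, was at 7.23, 5.82 and 19.9 CPM and had a count in 20, 21 and 122 cells, under the 50 CPM limit in every library. Both were higher in the *Vdr* cKO library than in either control, and *Lamb3* alone reached 50 CPM.

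Set against the basal keratins of the same library, the members had no common direction. For each 1000 counts of *Krt5* and *Krt14*, the members summed to 359, 436 and 385 counts, so the *Vdr* cKO library lay between the controls, and 3 single members lay above both controls, 4 below both and 2 between. *Dst* gave 189, 150 and 197 counts on that scale, *Itga6* 17.7, 37.5 and 17.4, and *Lama3* 4.71, 5.64 and 4.66. *Col17a1* remained above both controls, at 48.2, 60.6 and 90.6, and *Plec* and *Itgb1* lay below both, at 60.9, 135 and 34.9 and at 26.1, 20.1 and 14.7. For each 1000 counts of *Krt15*, another basal keratin, the tally was different: the members summed to 187, 212 and 215 counts, and 5 members (*Dst*, *Col17a1*, *Itgb4*, *Itga3* and *Lamb3*) lay above both controls, 2 below and 2 between. The same tallies over all genes were not computed. Whether the difference in basal keratins between the libraries accounts for that of the members was not tested.

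Other genes of the same structures were counted by lists. Of 16 other basement membrane genes, 1 reached 50 CPM, *Col7a1*, the anchoring fibril collagen, which was at 18.8, 10.2 and 92.0 CPM and passed the 2-fold rule. *Agrn* was at 14.2, 2.34 and 36.8 CPM and *Lamc1*, a chain of other laminins, at 13.5, 14.2 and 15.5 CPM. Among 7 of 14 other integrin and matrix receptor genes at 50 CPM, 1, the tetraspanin *Cd81*, was over 2-fold above both controls and 0 were below, with a median log2 difference of 0.62. The syndecans *Sdc4* and *Sdc1* were at 805, 642 and 1105 CPM and at 319, 319 and 490 CPM. Of 4 focal adhesion partners at that level, 2 were over 2-fold above both controls, *Tns4*, a tensin, at 56.7, 56.8 and 192 CPM, and *Fermt1*, the keratinocyte kindlin, at 15.2, 28.8 and 64.8 CPM.

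The other plakins lay on the opposite side. These 5 genes, of which the most abundant are desmosomal or cornified envelope proteins, had a median log2 difference of −0.67, and all 5 were lower in the *Vdr* cKO library than in both controls. The share of all genes lower than both controls at any fold was not computed. *Dsp*, which ties keratin to desmosomes, was at 4985, 5163 and 3295 CPM, *Ppl* at 1428, 1438 and 907 CPM and *Evpl* at 523, 535 and 270 CPM. Only *Eppk1* passed the 2-fold rule for lower genes, at 349, 311 and 144 CPM. The basal keratinocyte list had 5 of 8 genes over 2-fold above both controls and the differentiated epidermis list 0 of 11, with 1 below, so *Dst* differed in the direction of the basal genes and the other plakins in that of the differentiated genes.

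**Figure D2:**
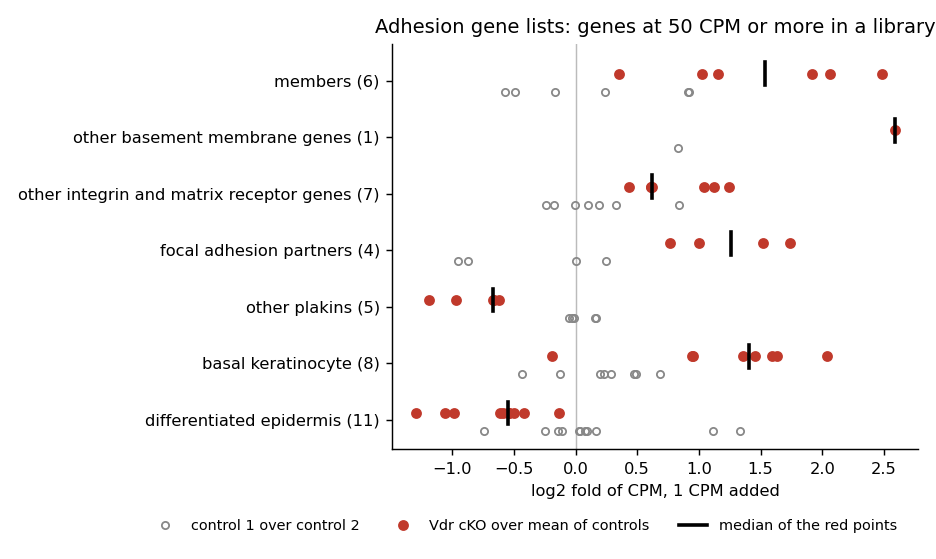
Log2 difference of CPM for each gene at 50 CPM or more in a library, by list, for the *Vdr* cKO library over the mean of the controls (red) and control 1 over control 2 (open grey). Black bars are medians, 1.53 for the 6 members and −0.67 for the 5 other plakins.

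To ask where in the epidermis the members were read, *Krt14*-high cells (above the 75th percentile of *Krt14* and at or below the median of *Lor* in their library) were compared with *Lor*-high cells (the reverse). There were 163, 188 and 390 *Krt14*-high cells and 216, 236 and 367 *Lor*-high cells, and these classes are ranges of a score, not cell types. The *Krt14* limit itself was 1062, 592 and 3016 CPM, and 19, 26 and 141 of the *Krt14*-high cells lay within 1.5-fold of it, so the classes are not the same cells in each library. *Lor*-high cells had 0 counts of *Krt14* in both controls and 304 CPM in the *Vdr* cKO library. The class rule fixed this 0, because *Lor*-high cells had to lie at or below the *Krt14* median of their library. That median was 0 CPM in both controls and 1106 CPM in the *Vdr* cKO library. The summed members were at 825 against 388 CPM in control 1, at 1103 against 335 CPM in control 2, and reached 2937 against 600 CPM for *Vdr* cKO, so they were higher in *Krt14*-high cells of all 3 libraries, by log2 1.09, 1.72 and 2.29. In control 1 this rested on *Dst*, without which the sums were 380 against 343 CPM, a log2 difference of 0.15. The median log2 difference over all genes at 50 CPM in a class was 0.50, 0.48 and 0.31, which in control 1 is above the sum without *Dst*.

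*Dst* was the member that was over 2-fold higher in *Krt14*-high cells of every library, 1 of the 5 members at 50 CPM in a class of each library, where 8.24% of 2973 genes did so, and 0 of the 5 were lower in every library, where 8.07% of genes were. In the single libraries 1 of 5, 5 of 5 and 6 of 7 members at that level were over 2-fold higher, where 40%, 36.9% and 23.8% of genes were, and 1 (*Plec*), 0 and 0 were lower, where 25.6%, 20% and 12.6% of genes were. Its levels were 445 against 45.0 CPM in control 1, at 307 against 153 CPM in control 2, and at 1550 against 291 CPM for *Vdr* cKO. In control 2 the log2 difference was 1.00, at the limit itself, and the call was lost, among other settings, with TMM or median-of-ratios factors, with 10 CPM added, with classes set after thinning, and with all deposited barcodes. Cells at 1000 counts gave the same order for *Dst*, with 17.3% against 4.25%, 15.6% against 10.3% and 52.6% against 25.4%, although the intervals of control 2 (10.7% to 21.6% and 6.62% to 15.01%) overlapped. *Col17a1* was at 147 against 75.5 CPM, 260 against 25.9 CPM and 723 against 126 CPM, and fell short of 2-fold in control 1. Among *Lor*-high cells, which should lack hemidesmosomes, *Col17a1* was still detected in 5.19%, 3.12% and 13.1%, against 8.02%, 8.602% and 35.2% of *Krt14*-high cells.

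*Itga6* and *Itgb1* were split by library, and *Itgb4* rested on few cells in the controls. In control 1 neither *Itga6* (74.7 against 56.9 CPM) nor *Itgb1* (66.4 against 71.8 CPM) was 2-fold apart between the classes. In control 2 *Itga6* was at 129 against 11.8 CPM and *Itgb1* at 84.1 against 22.7 CPM, and in the *Vdr* cKO library they were at 143 against 19.2 CPM and 139 against 18.4 CPM. *Itgb4* was higher in *Krt14*-high cells of each library, at 8.36 against 1.12 CPM, 8.97 against 1.77 CPM and 71.0 against 19.7 CPM, from 2 and 1 cells with a count in control 1. Control 1 values came from 9 and 12 cells for *Itga6* and from 13 and 5 cells for *Itgb1*. *Plec* had no common direction, at 35.4 against 128 CPM, 239 against 97.9 CPM and 143 against 89.3 CPM. *Lamb3* was higher in *Krt14*-high cells of all libraries, at 47.7 against 6.70 CPM, 44.8 against 9.73 CPM and 129 against 27.8 CPM, from 2, 14 and 68 *Krt14*-high cells with a count. In control 1 the log2 difference of 2.66 turned, among other settings, to −0.35 with all deposited barcodes and to −4.23 with classes set after thinning, and was 0 for cells with 500 genes or more.

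**Figure D3:**
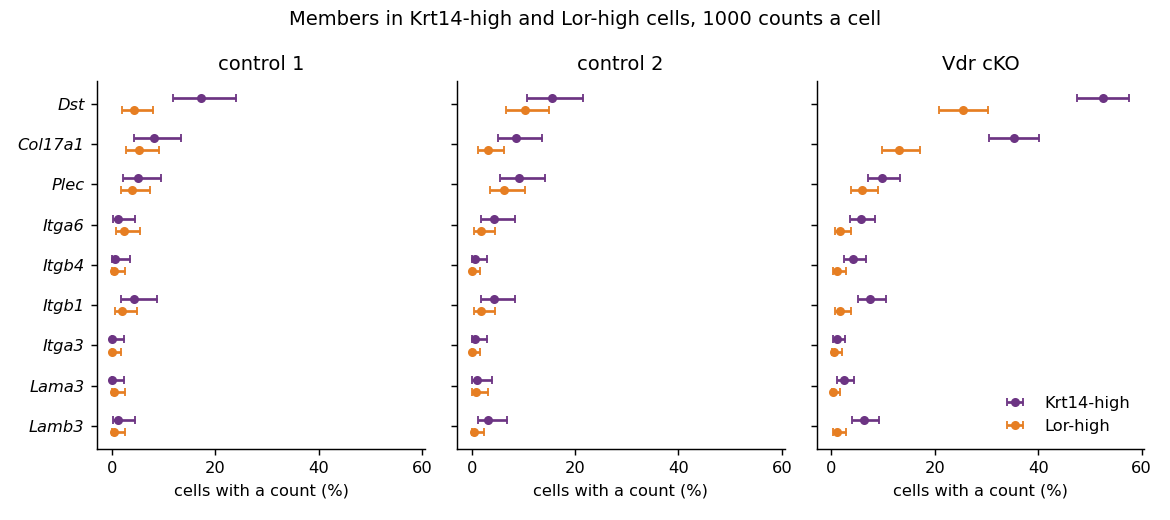
Share of *Krt14*-high and *Lor*-high cells with a count of each gene after each cell was drawn down to 1000 counts, with exact binomial 95% intervals, in 3 panels by library. In the *Vdr* cKO library the 2 classes are apart for *Dst* (52.6% against 25.4%) and *Col17a1* (35.2% against 13.1%), and in the controls most intervals overlap.

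Other cells moved with these classes. Sebaceous genes were also higher in *Krt14*-high cells, 5 of 7 over 2-fold in every library, with median log2 differences of 4.11, 4.72 and 2.98, and basal genes gave 5 of 7. Differentiated genes were lower in 8 of 11. *Krt14* is among those 5 basal genes and *Lor* among those 8 differentiated genes, and both define the classes, so their part was set in advance. Over all 2973 genes, 8.24% were higher in every library and 8.07% lower. *Krt14*-high cells had more counts, with medians of 4870, 6246 and 6031 counts against 3537, 3367 and 3957 in *Lor*-high cells. The part of these differences in the member values was not tested. Cells with at least 2 sebaceous markers had lower summed member levels than the other cells of their library, at 506 against 577 CPM, 320 against 492 CPM and 1275 against 1801 CPM.

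Within the *Krt14*-high cells alone, 4 of the 7 members at 50 CPM (*Dst*, *Col17a1*, *Itgb4* and *Lamb3*) were over 2-fold higher in the *Vdr* cKO library than in both controls, where 9.17% of 5015 genes were, and 0 were lower, where 6.68% were. The *Krt14* limit of this class differed by library (1062, 592 and 3016 CPM). Basal keratins differed within it, with *Krt5* at 2157, 1370 and 4612 CPM and *Krt15* at 6873, 4329 and 12536 CPM. The part of this in the member values was not tested. *Itgb4* was at 8.36, 8.97 and 71.0 CPM in these cells, and *Plec* at 35.4, 239 and 143 CPM. Counted once per cell, 2 members passed there, *Col17a1* and *Lama3*, where 5.59% of 6513 genes did, and *Dst* had a log2 difference of 0.52. In *Lor*-high cells 0 of 5 members passed, where 7.75% of 4027 genes did, and 0 lay below, where 4.15% did, and *Dst* was at 45.0, 153 and 291 CPM. Whether the difference between libraries is itself larger in one class than in the other was not tested, because the *Vdr* cKO group is 1 library.

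Along *Lor* itself, with cells of a library ranked by *Lor* and cut into 5 equal bins, *Dst*, *Col17a1* and *Itga6* stepped down from bin to bin in the *Vdr* cKO library and in neither control. The share of all genes that step down in this way was not computed. Control bins held few cells with a count: for *Itga6* in control 1 they held 15, 6, 7, 11 and 15, against 100, 77, 63, 57 and 54 in the *Vdr* cKO library. *Dst* was at 1221, 1047, 816, 655 and 438 CPM from the lowest to the highest bin of the *Vdr* cKO library. *Col17a1* was at 555, 475, 374, 336 and 193 CPM there, and *Itga6* at 103, 95.7, 78.8, 56.7 and 38.8 CPM. The other 6 members did not step down in every bin of that library: *Plec* was at 193, 147, 140, 149 and 112 CPM, *Itgb4* at 66.5, 42.7, 38.8, 40.0 and 17.6 CPM, and *Lamb3* at 79.1, 53.3, 70.03, 61.9 and 38.4 CPM, while *Itgb1* was highest in bin 2 (98.2 CPM), *Lama3* in bin 3 (33.0 CPM), and *Itga3* was lowest in bin 3 (2.18 CPM). In control 1 *Dst* was at 308, 361, 472, 205 and 127 CPM, with its highest value in the middle bin, and in control 2 at 115, 214, 138, 216 and 152 CPM, with no order. *Krt14* itself was at 2676 CPM in the lowest and 1475 CPM in the highest bin of the *Vdr* cKO library, a ratio of 1.81, and at 955 and 512 CPM in control 1, a ratio of 1.87, and at 650 and 528 CPM in control 2. The lowest bins also held the deepest cells, with median counts of 11731, 18459 and 7258 per cell against 3695, 3950 and 4232 in the highest, and the part of depth in this order was not tested.

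**Figure D4:**
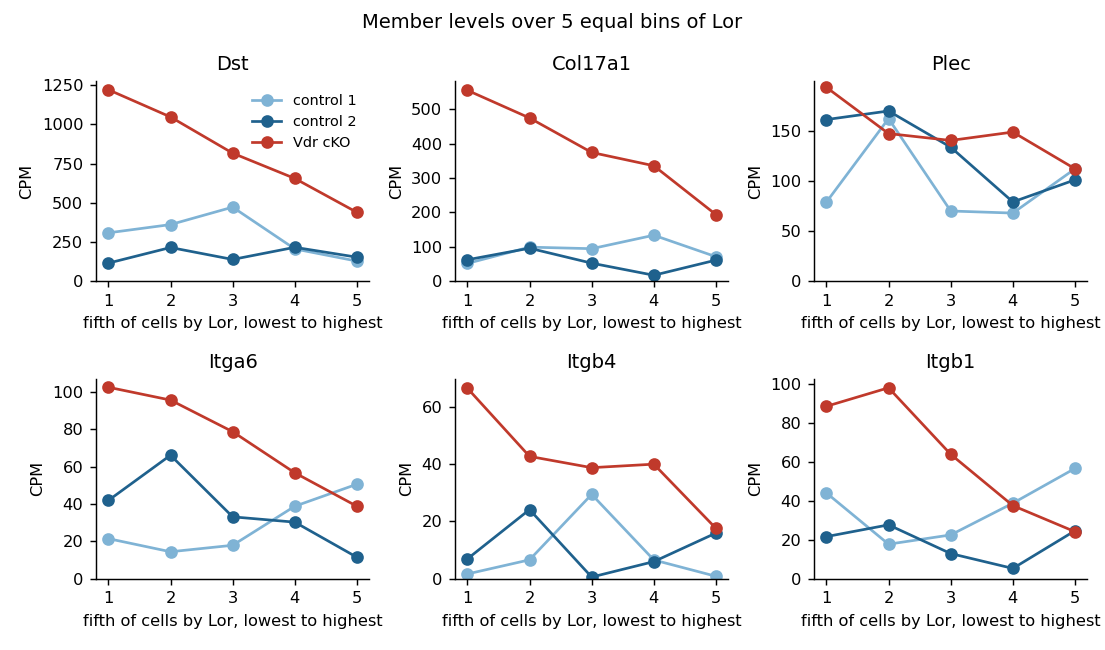
CPM of 6 members over 5 equal bins of cells by *Lor*, lowest to highest, for each library, with axes from 0. *Dst*, *Col17a1* and *Itga6* step down in the *Vdr* cKO library, *Dst* from 1221 to 438 CPM, while the control lines cross and have no shared order.

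Over these 15 values (5 bins in each of 3 libraries, on a log2 scale with 10 CPM added, centred in each library), the gene most like the mean of the members was *Krt15*, a keratin of basal and bulge cells, with a Pearson r of 0.84 among 2745 genes at 50 CPM or more in every library. *Luc7l3* (0.79), *Tsn* (0.78), *Mt2* (0.78) and *Srrm2* (0.75) came next. For *Dst* alone, the nearest were *Btg1* (0.91), *Clint1* (0.85) and *Ddx21* (0.82). *Dst* had an r of 0.44 with the mean of the other members, *Col17a1* of 0.75 and *Lama3* of 0.22. The likeness to *Krt15* did not extend to *Krt14*. With *Krt14*, r was 0.51 for *Dst* and ran from −0.15 (*Itga3*) to 0.38 (*Lama3*) for the other members, with *Col17a1* at 0.10. The 15 points share libraries and depths, so these values describe the likeness and carry no p.

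By CPM, *Dst* and *Col17a1* also differed between *Krt14*-high cells with and without *Krt15*. With a *Krt15* count at 1000 counts per cell, *Dst* was at 700, 510 and 1566 CPM, and without one at 131, 47.4 and 394 CPM. *Col17a1* was at 260, 449 and 730 CPM with *Krt15* and at 7.69, 17.9 and 219 CPM without. By share of cells at 1000 counts, *Dst* was seen in 20.8%, 19.7% and 53.7% with *Krt15* and in 10.7%, 7.81% and 29.4% without. *Col17a1* was seen in 10.4%, 11.5% and 36.0% with and in 3.57%, 3.12% and 17.6% without. The shares without *Krt15* rest on 6, 5 and 5 cells for *Dst* and on 2, 2 and 3 for *Col17a1*. Exact binomial intervals with and without *Krt15* overlapped for both genes in every library. By CPM, *Itga6* lay the other way in control 1 (35.6 against 123 CPM) and in the *Vdr* cKO library (141 against 321 CPM), as did *Plec* in the *Vdr* cKO library (142 against 234 CPM). These values rest on few cells. At 1000 counts *Itga6* was seen in 1 cell on either side in control 1. In the *Vdr* cKO library it was seen in 22 of 369 cells with *Krt15* and 0 of 17 without, and *Plec* in 36 and 2. *Krt15* was also the gene most like the members in these data, so this split is not independent of that. The groups without a *Krt15* count had 56, 64 and 17 cells, and those of the *Vdr* cKO library had a median of 2505 counts against 6334. A count of *Gata3*, a transcription factor of hair follicle and epidermal differentiation, divided *Dst* less: 789 against 366 CPM and 311 against 306 CPM in the controls, and 1686 against 1440 CPM for *Vdr* cKO.

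The members were next read in cells defined by other markers, at least 2 of a list in cells at 1000 counts. Cycling cells, with at least 2 of 6 proliferation genes, numbered 4, 6 and 55. In the 55 of the *Vdr* cKO library the summed members were at 3724 against 1614 CPM in the other cells, *Dst* at 1943 against 826, *Col17a1* at 986 against 378 and *Itgb1* at 296 against 59.1. *Plec* (114 against 149 CPM), *Itga3* (2.14 against 9.10 CPM) and *Lama3* (0 against 20.3 CPM) lay the other way. In bulge-marked cells, 21, 21 and 425 in number, the sums were 2902 against 513 CPM, 1209 against 446 CPM and 2048 against 1571 CPM. In control 1 that sum was *Dst* for the most part (2700 against 252 CPM). There *Col17a1* (3.43 against 74.9 CPM), *Plec* (0 against 94.9 CPM) and *Itgb4* (0 against 5.95 CPM) lay the other way. *Lamb3* did too (10.3 against 12.7 CPM). In control 2 *Itga6* (0 against 38.8 CPM) and *Lamb3* (0 against 14.4 CPM) lay the other way. So did *Lama3* (0 against 5.85 CPM) and *Itga3* (0 against 2.35 CPM) there, and *Lama3* in the *Vdr* cKO library. At 1000 counts *Dst* was seen in 23.8%, 9.52% and 49.4% of bulge-marked cells, against 11.6%, 12.1% and 35.7% of the others. *Krt15* is in the bulge and the basal list alike. The 21 cells with inner root sheath markers, found in the *Vdr* cKO library alone, had a sum of 1663 against 1646 CPM, with *Col17a1* at 91.2 against 389 CPM, and the 198 companion layer cells 1709 against 1641 CPM.

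Members were finally counted together in single cells. At 1000 counts per cell, 24.4%, 24.5% and 58.9% of cells had at least 1 member, 2.66%, 4.32% and 21.6% had at least 2, and 0.341%, 0.751% and 5.11% had at least 3. The exact binomial 95% intervals of the last shares were 0.111% to 0.794%, 0.389% to 1.31% and 4.29% to 6.04%, so that of the *Vdr* cKO library lay above both others. At full depth the shares with at least 3 were 2.36%, 4.28% and 24.7%. Drawing cells down to equal counts does not make the number of detected genes equal, and at full depth this number was highest in the *Vdr* cKO library. Detection shares over all genes were not computed, so the higher shares there are not shown to be particular to the members. Among *Krt14*-high cells 1.85%, 2.69% and 10.6% had at least 3 members, against 0%, 1.34% and 1.14% of *Lor*-high cells, where 0 of 212 cells in control 1 allows a share of up to 1.42% by the limit of 3 counts and up to 1.72% by the exact interval.

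**Figure D5:**
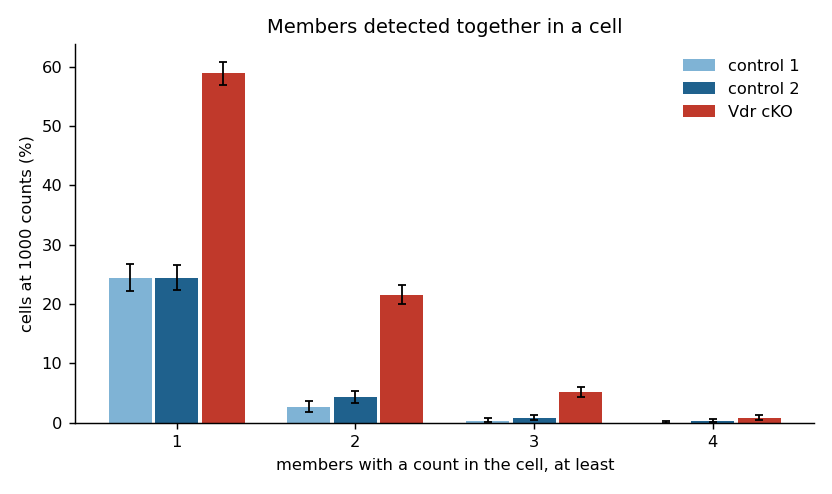
Share of cells with at least 1 to 4 of the 9 members at 1000 counts per cell, by library, with exact binomial 95% intervals. The *Vdr* cKO bars stand above both controls at each number, at 58.9% against 24.4% and 24.5% for at least 1.

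Most of the pairs that could be read were found together about as often as, or somewhat above, what their single shares give. Of the 36 pairs, 2, 3 and 19 had at least 5 cells expected from the product of the single shares within 10 strata of detected genes, and 1, 2 and 16 of these were above that number, with medians of 1.15, 1.75 and 1.27 times. The same tally over pairs of other genes was not computed, so the excess is not shown to be particular to the members. *Dst* and *Col17a1* were together in 259 cells of the *Vdr* cKO library (10.1%), where 219 were expected, a ratio of 1.18, and in 13 and 19 control cells where 9.64 and 9.49 were expected. *Dst* and *Itga6* were together in 75 cells with 49.1 expected, and *Col17a1* and *Itgb4* in 23 with 14.8 expected. The pairs of *Plec* with *Itgb4* (5 cells, 6.36 expected) and with *Lamb3* (5 cells, 9.51 expected) were below. The partners *Itga6* and *Itgb4* shared 8 cells with 3.34 expected, and *Itgb1* and *Itga3* shared 0 cells with 0.52 expected, too few to read.

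Reads of overlapping genes cannot always be told apart from those of the members, and the sources used here do not state whether the counting used strand. *Gm26788* lies antisense within *Dst* and had 204 counts over all barcodes of the 3 libraries. *Parp10* overlaps the first bases of *Plec* on the same strand, where strand could not separate them, and had 2662 counts. G0s2 and *Hsd11b1*, within the long annotated span of *Lamb3*, had 4 and 23 counts.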

How the data were processed

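Single-cell RNA sequencing of P18 dorsal skin cells was done by the authors with a droplet kit (RNAdia) in 3 libraries. The authors deposited, for each library, a matrix of raw counts per gene and cell barcode. The submitters' processing notes name the genome build mm10, the methods name Seurat for alignment, and the annotation, the limit for cells and the rule for counting molecules are not given in the sources used here. Of the 19927 gene symbols, 97.6% were found in GENCODE M21, including all 9 members. Columns of other samples numbered 0.

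Counts were summed over kept cells (at least 200 genes, at most 20% mitochondrial counts) and divided by the library total (CPM). Log2 differences had 1 CPM added, and a gene at 50 CPM or more in a library was called when over 2-fold above or below both controls. No test was possible with 1 *Vdr* cKO library. For shares of cells, each cell was thinned to 1000 counts with a fixed seed, which left out 14, 61 and 60 shallower cells. Exact Poisson and Clopper-Pearson 95% intervals, and limits from 0 counts (3 counts), cover counting error only, and PCR copies make the Poisson intervals too narrow. No doublets were removed. Marker-defined cells had at least 2 genes of a list, and lists with fewer than 20 such cells were not read. Scale factors came from edgeR 4.0.16 (TMM) and DESeq2 1.42.0 in R 4.3.3; other steps used Python 3.11.15, numpy 2.4.6, scipy 1.17.1, pandas 2.3.3 and matplotlib 3.10.9. The call rule, thinning and the interval of a ratio were tested on simulated data. For the call rule and that interval the simulated counts were Poisson, without PCR copies or differences between cells. They do not show how either holds in these data. All members were named with their values, along with up to 3 genes of highest mean CPM in each other list, genes that make up a count of 5 or fewer, and the 5 genes most like the members and 3 most like *Dst*. The members and the lists were chosen with earlier results of these data known. The alternatives tried were other cell limits, library scales, pseudocounts, minimum levels and folds, other class definitions and depths, counting each gene once per cell, and leaving out each control.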

Additional observations from a re-analysis of the deposited data

Results flagged for a closer look

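*Lama3* differed in direction between the libraries. Its log2 difference of *Krt14*-high over *Lor*-high cells was −1.27 in control 1, −0.0053 in the other control and 2.48 for *Vdr* cKO. The difference between the libraries was not tested. The values rest on 1 *Krt14*-high and 3 *Lor*-high cells with a *Lama3* count in control 1, on 5 and 2 in control 2, and on 33 and 9 in the *Vdr* cKO library, and *Lama3* was under 50 CPM in each class.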

How the results depend on the processing

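No paired analysis was possible because the *Vdr* cKO group holds 1 library and shares fewer than 2 replicate numbers with the controls. Of the single members' values between libraries, 129 of 162 under the alternatives moved by less than 1 SD of the controls, and 33 moved more. This SD came from the 2 controls alone, so where they lay far apart a large change counted as within it. Of the values between classes, 310 of 405 moved by less and 95 moved more. *Itga3* had 0 counts in control 1, so its 15 class values there could not move. A sign change was counted only for values that passed 50 CPM and 2-fold, and 0 of either kind had one. Other class values in control 1 did cross 0: *Col17a1* ran from −0.37 to 2.98, *Itga6* from −2.90 to 3.05 and *Itgb1* from −0.79 to 5.72. *Itgb4*, *Lama3* and *Lamb3* crossed 0 there too, as did *Lama3* in control 2 and *Itga3* in the *Vdr* cKO library. In each case below the cause was not tested. The number of members over 2-fold above both controls, 3, was 5 with at least 10 CPM, 6 with no minimum CPM, 5 with a 1.5-fold limit and, chosen after seeing the data, 5 with at least 10 CPM and each gene counted once per cell. It was 4 without either control. Among all genes the share over 2-fold above both controls, 3.88%, also rose, to 7.97% with at least 10 CPM and 9.40% with no minimum. It was 9.21% with the 1.5-fold limit and 8.08% with at least 10 CPM and each gene counted once. Without control 1 it was 7.11%, and without control 2 6.37%.

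The summed log2 difference between libraries, 1.72, was 1.96 for cells with over 300 and under 4000 genes and under 5% mitochondrial counts, 2.01 for cells with 500 genes or more, 1.504 with median-of-ratios factors, 1.35 as the mean over cells and 1.03 with each gene counted once per cell. It was 0.74 in *Krt14*-high cells with each gene counted once, an alternative chosen after seeing the data. It ran from 1.58 to 1.87 when a control was left out.

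Between the classes, the 1 member called in every library became 0 with all deposited barcodes, with TMM or median-of-ratios factors, with 10 CPM added and with classes set after thinning. It became 3 with either stricter limit for cells, with the top 10% of cells, with percentiles of all cells together or with *Krt10* in place of *Lor*, and 2 with *Krt5* in place of *Krt14*. Over all genes the calls, 245 of 2973, ran under these settings from 89 of 2826 (classes set after thinning) to 371 of 2774 (top 10% of cells). The member called was not always *Dst*: it was *Lamb3* with the 20 most abundant and mitochondrial genes left out of the total or as the mean over cells, and *Itgb1* counted once per cell, and the 3 under the 500-gene limit were *Col17a1*, *Itga6* and *Itgb1*. The number ran from 1 to 4 when a control was left out, being 4 without control 1 (*Dst*, *Col17a1*, *Itga6* and *Itgb1*). Over all genes, 401 of 3387 were then called, and 412 of 3315 without control 2. The summed log2 class difference in control 1, 1.09, was 1.87 under the 300-gene limits, 2.46 under the 500-gene limit, 0.50 as the mean over cells, 0.60 counted once per cell, 1.91 with the top 10% of cells, 2.43 with *Krt5*, 0.44 after thinning and 0.15 without *Dst*. In control 2, 1.72 became 1.22 with TMM factors, 1.17 with median-of-ratios factors, 0.96 as the mean over cells, 1.05 counted once per cell, 2.45 with the top 10% of cells, 2.18 with joint percentiles, 2.45 with *Krt5* and 0.98 after thinning. In the *Vdr* cKO library, 2.29 became 1.80 with TMM factors, 1.26 as the mean over cells, 0.94 counted once per cell and 1.18 after thinning.

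The share of cells with at least 3 members varied with depth and with the limits for cells. In control 1, 0.341% was 0.950% under the 500-gene limit, 0.807% at 2000 counts and 2.36% not thinned. In control 2, 0.751% was 1.10% and 1.43% under the 2 stricter limits, 0.363% at 500 counts, 1.49% at 2000 counts, 4.28% not thinned and 0.121% with 200 detected genes drawn. In the *Vdr* cKO library, 5.11% was 5.53% with all barcodes, 5.96% and 6.08% under the stricter limits, 2.25% at 500 counts, 12.1% at 2000 counts, 24.7% not thinned and 0.801% with 200 genes drawn, and it was above both controls under each of these.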
